A study of Mus musculus with 6 samples.

Results

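The constant region genes of the antibody chains and the J chain gene were examined in mouse lung by RNA sequencing. The group was chosen by name and comprised the heavy-chain genes Ighm, Ighd, Igha, Ighg1, Ighg2b, Ighg2c, Ighg3 and Ighe, the kappa light-chain gene Igkc, and Jchain. Of these 10 genes, 9 had a row among the 41388 genes of the count table, 8 under the listed symbol and Jchain under its older symbol Igj. Ighd was not analysed here. Of the 18660 genes with enough counts to be tested, 8 belonged to the group, and Ighe was too low.

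The KO mice were adults of the B6.129S7-Zpbp2tmZuk/Mmjax strain, which lacks the start of Zpbp2 with part of its promoter, on a C57BL/6J background. The WT mice were adult C57BL/6J animals from the same colony. Lungs of both genotypes were taken at Zeitgeber time 7, that is 7 h after lights on, and 3 libraries were made per genotype. The study asked how the Zpbp2 region acts on neighbouring genes and on the circadian clock, and the immunoglobulin genes served here to describe the antibody-producing cells in the same lungs. No gene of the group lies on the chromosome of Zpbp2.

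Total counts were between 59134950 and 71354388 per library. Zpbp2 itself had 7 to 20 counts in the WT and 0 to 1 in the KO libraries. Alveolar genes marked all libraries as lung. On the lung list 4 of 6 genes were called higher in KO (edgeR, adjusted p = 0.0446 for each), against 1.38% of all tested genes. The log2 fold changes were 0.62 for Sftpc, 0.49 for Sftpb and 0.43 for Sftpa1, which encode surfactant proteins. For Ager, a gene of alveolar type I cells, the log2 fold change was 0.45. Each of these calls was lost on leaving out any 1 WT library. Sftpc was at 12163 to 12526 CPM in WT and 18194 to 19559 CPM in KO. CPM denotes the counts of a gene per 1000000 of the TMM-scaled library size. KO2 and KO3 differed by little more than counting noise over all genes, so they were counted as 1 sample, with n = 3 for WT and n = 2 for KO. The labels and the study's methods give them as separate mice, and whether they came from separate animals was not settled here. Each KO mean, SD and p below depends on this choice. Transcripts of squamous epithelium stood apart in WT3 and KO1, where 10 such genes summed to 4523 and 8694 CPM, against 5.40 to 6.72 CPM in the other libraries. Haemoglobin and other erythroid genes stood apart in KO2 and KO3, with summed levels of 18947 and 19716 CPM, against 2388 to 5523 CPM elsewhere.

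An antibody is built of paired heavy and light chains, and the heavy-chain constant region sets its class. Naive B cells carry IgM and IgD on their surface. After activation a B cell may exchange its constant region for IgG, IgE or IgA by class switch recombination, and it may become a plasma cell, which fills its cytoplasm with immunoglobulin mRNA. J chain joins IgM into pentamers and IgA into dimers, which the polymeric immunoglobulin receptor carries across epithelium into the airway. C57BL/6 mice carry Ighg2c in place of the Ighg2a gene of several other strains.

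On GRCm38 the heavy-chain genes lie on the minus strand of chromosome 12, in the order of transcription Ighm, Ighg3, Ighg1, Ighg2b, Ighg2c, Ighe and Igha. Ighm (ENSMUSG00000076617) spans chr12:113418558-113422730 and Igha (ENSMUSG00000095079) chr12:113254830-113260236. Ighg2c (ENSMUSG00000076612) spans chr12:113285325-113288932 and Ighg2b chr12:113302965-113307933. Igkc lies at chr6:70726435-70726966 on the plus strand and Jchain (ENSMUSG00000067149) at chr5:88519809-88527891 on the minus strand.

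The IgG subclasses are told apart most easily by their hinge, the flexible exon between the antigen-binding arms and the tail. The hinge exons of the 4 IgG genes, read from the genome at the GENCODE exons, are shown because the comparison below turns on how counts were divided among these genes. Capitals mark the in-frame cysteine codons, which can form the disulphide bonds between the heavy chains. The exons lie at chr12:113329844-113329882 for Ighg1, chr12:113307261-113307326 for Ighg2b, chr12:113288263-113288325 for Ighg2c and chr12:113360529-113360576 for Ighg3, each printed from the minus strand.
Ighg1: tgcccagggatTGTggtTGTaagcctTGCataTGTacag
Ighg2b: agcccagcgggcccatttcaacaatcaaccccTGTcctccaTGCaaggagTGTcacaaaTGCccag
Ighg2c: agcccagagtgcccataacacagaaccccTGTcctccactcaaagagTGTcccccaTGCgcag
Ighg3: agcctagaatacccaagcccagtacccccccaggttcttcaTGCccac

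The hinge exons of Ighg1 and Ighg2b held 4 cysteine codons each, that of Ighg2c 3 and that of Ighg3 1. Between the annotated exons of the genes, 5.49% of the 50-base words of Ighg2c also occurred in Ighg2b, and no 100-base word of Ighg2c occurred in another IgG gene. The read length and the treatment of multiply aligned reads were not given in the sources used here, so a small part of the reads of Ighg2b and Ighg2c may have been left uncounted or exchanged.

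The classes that bind J chain share a short tail at the end of the secreted heavy chain. It is shown for Ighm and Igha because both bind J chain, whose gene is compared with them below, and capitals mark the codon of the cysteine to which J chain can be bonded. The stretches lie at chr12:113420870-113420928 for Ighm and chr12:113258771-113258829 for Igha, both from the minus strand.
Ighm: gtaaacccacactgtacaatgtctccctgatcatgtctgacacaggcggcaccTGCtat
Igha: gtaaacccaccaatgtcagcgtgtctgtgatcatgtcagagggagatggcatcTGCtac

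The counts of the group were dominated by IgM and kappa. The 9 genes together took 0.0585% to 0.0947% of all counts in a library. Per kb of annotated exon, the mean level over the 5 samples was highest for Igkc at 353 CPM per kb, then Ighm at 246, Jchain at 16.5, Igha at 13.2, Ighg2c at 3.65, Ighg2b at 1.64, Ighg3 at 0.786 and Ighg1 at 0.355 CPM per kb. The ranges over libraries overlapped between Igkc and Ighm, and between each pair of neighbours in this order from Jchain to Ighg1. The lowest library of Ighm, at 186 CPM per kb, lay above the highest of Jchain, at 28.9 CPM per kb. The exon length of Ighg2c in the annotation, 1326 bp, is shorter than the 2512 to 2678 bp of the other IgG genes, which raises its level per kb against theirs. The order of the means was not that of each library. Per kb, Ighg2b was above Ighg2c in WT3, at 2.45 against 0.994 CPM, and Igha was above Jchain in WT1 and WT3. Ighg2c was above Ighg2b in each KO library, at 2.74 against 0.528 CPM per kb in KO1, 11.0 against 2.31 in KO2 and 11.1 against 2.59 in KO3. The plot of the CPM of each gene by library shows the same levels without the division by length.

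**Figure D1:**
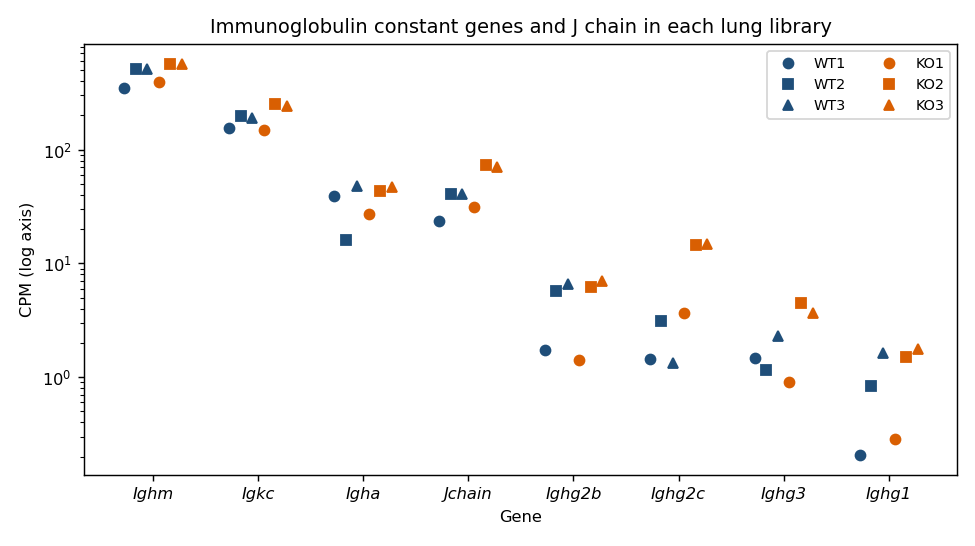
Level of each tested gene in each of the 6 lung libraries in CPM on a log axis (blue, WT; orange, KO; circle, square and triangle for replicates 1, 2 and 3). In Ighg2c the lowest KO library, at 3.64 CPM, lies above the highest WT library, at 3.10 CPM, while the genotypes overlap in the other 7 genes.

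None of the 8 tested genes was called in KO against WT (0 of 8 by edgeR at an adjusted p of at most 0.05, 1 of 8 at an unadjusted p of at most 0.05), where 2.28% of all tested genes were called (1.38% higher and 0.906% lower in KO) and 27.3% passed the unadjusted threshold. DESeq2 called 1 of the 8, which was Ighg2c, at a background of 21.5% called. With 6 separate libraries edgeR called Ighg2c higher in KO as well, where 18.9% of all genes were called and 9.81% were called higher. The log2 fold change was positive for 7 of the 8 genes, with a median of 0.14, against 0.015 over all tested genes. Without KO2 and KO3 it was negative for 7 of the 8 genes. By exon length, the median over all tested genes was 0.13 up to 1000 bp, 0.19 from 1000 to 2000 bp and 0.13 from 2000 to 3000 bp. It was 0.059 from 3000 to 4000 bp and -0.064 above 4000 bp. The part of gene length in the values of the group was not tested. In whole lung, more cells of a type and more RNA per cell cannot be told apart.

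**Figure D2:**
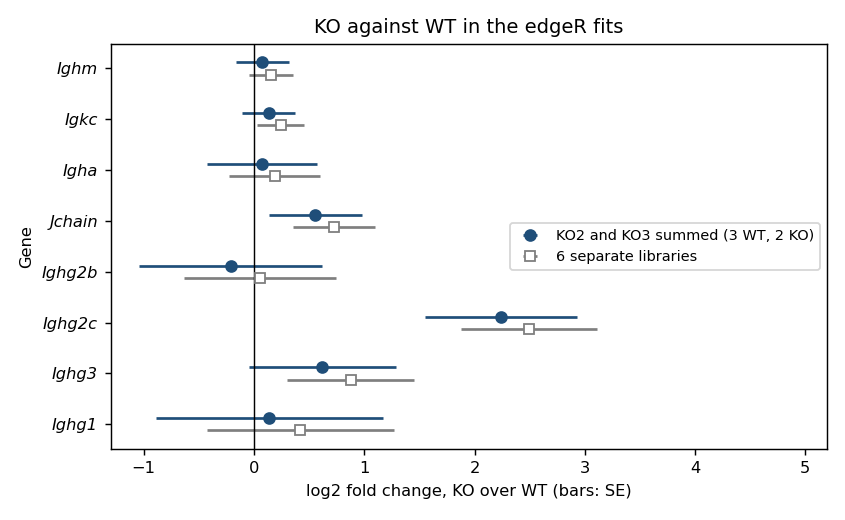
Log2 fold change of each tested gene, KO over WT, from edgeR with KO2 and KO3 summed (filled circles) and with 6 separate libraries (open squares), with bars of 1 SE. Ighg2c stands at 2.24 and 2.49, and the filled-circle bars cross 0 for every other gene but Jchain.

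Ighm, the constant gene of the first antibody class a B cell makes, was at 351, 509.5 and 507 CPM in WT1, WT2 and WT3. It was at 389.5, 562 and 571 CPM in KO1, KO2 and KO3. The genotypes overlapped, with the lowest library in WT and the highest pair in KO2 and KO3. The means were 456 ± 91.1 CPM in WT (SD, n = 3) and 478 ± 125 CPM in KO (SD, n = 2), and the log2 fold change was 0.075 with an SE of 0.24 (edgeR, adjusted p = 0.869).

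Igkc, which encodes the constant part of the kappa light chain, was at 155, 197 and 191 CPM in the WT libraries and at 149, 249.6 and 244 CPM in the KO libraries. Both the lowest and the highest library were KO. Its log2 fold change of 0.13 (SE 0.24) did not pass the test (edgeR, adjusted p = 0.765). Igkc followed the heavy chains closely within a library, at 33.7 to 39.3 counts per 100 heavy-chain constant counts in WT and 35.2 to 39.5 in KO. Iglc2, the 1 lambda constant gene of 4 listed that had a row, took 8.43% to 11.6% of the summed Iglc2 and Igkc counts in WT and 7.76% to 9.68% in KO. The other lambda constant genes were not analysed here, so this is not the whole lambda share.

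Igha, the constant gene of the mucosal class IgA, had the widest spread between WT libraries among the 4 abundant genes. It was at 39.2, 16.1 and 48.3 CPM in WT1, WT2 and WT3 and at 27.1, 43.6 and 46.8 CPM in KO1, KO2 and KO3. WT2 was the lowest and WT3 the highest of all libraries, so the KO values fell within the WT range. The means were 34.5 ± 16.6 CPM in WT (SD, n = 3) and 36.2 ± 12.8 CPM in KO (SD, n = 2), with a log2 fold change of 0.076 and an SE of 0.50 (edgeR, adjusted p = 0.939). As a share of the heavy-chain constant counts Igha took 9.93%, 2.995% and 8.51% in the WT and 6.41%, 6.90% and 7.26% in the KO libraries.

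Jchain was at 23.4, 40.5 and 41.1 CPM in the WT libraries. It was at 31.0 CPM in KO1, and at 72.8 and 69.8 CPM in KO2 and KO3. KO1 fell between the WT libraries and only KO2 and KO3 lay above them. The means were 35.0 ± 10.04 CPM in WT (SD, n = 3) and 51.1 ± 28.5 CPM in KO (SD, n = 2), and the log2 fold change of 0.56 (SE 0.42) did not pass the test (edgeR, adjusted p = 0.4553). Without KO2 and KO3 it was -0.18, and without WT3 and KO1 it was 1.16. With 6 separate libraries it was 0.73 (edgeR, adjusted p = 0.215). Adding a replicate block to the 6 libraries gave 0.67 (edgeR, adjusted p = 0.0428).

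Read against its IgM partner, Jchain had 6.68, 7.95 and 8.10 counts per 100 Ighm counts in the WT libraries, and 7.96 in KO1. KO2 and KO3 stood apart with 13.0 and 12.2. Per 100 counts of Ighm and Igha together, KO2 and KO3 had 12.0 and 11.3, against 7.44 for KO1 and 6.01, 7.71 and 7.40 for the WT libraries. KO2 and KO3 are also the libraries with the high erythroid sums, of 18947 and 19716 CPM. The part of blood cells in the Jchain level was not tested.

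Among the IgG genes, Ighg2c was the only one in which the genotypes did not overlap. Ighg2c had 105, 219 and 79 counts in WT1, WT2 and WT3, and 229, 910 and 862 counts in KO1, KO2 and KO3. These correspond to 1.44, 3.10 and 1.32 CPM in WT and 3.64, 14.6 and 14.8 CPM in KO. KO1 lay just above WT2, while KO2 and KO3 were far above all others. Over all tested genes, every KO library was above every WT library in 20.0%.

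The mean level of Ighg2c was 1.95 ± 0.997 CPM in WT (SD, n = 3) and 9.17 ± 7.82 CPM in KO (SD, n = 2). The log2 fold change was 2.24 with an SE of 0.69 (edgeR, unadjusted p = 0.022, adjusted p = 0.122). With 6 separate libraries it was 2.49 (edgeR, adjusted p = 0.0382), and by DESeq2 it was 2.23 (adjusted p = 0.0420). The size of the difference rested on the sample of KO2 and KO3, without which the log2 fold change was 0.89 (edgeR, adjusted p = 0.353, with KO1 alone assumed to vary like WT).

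Ighg2b, the neighbour of Ighg2c in the locus, was at 1.72, 5.68 and 6.57 CPM in the WT and at 1.41, 6.17 and 6.95 CPM in the KO libraries. WT1 and KO1 were low alike, and the other libraries were close together. The log2 fold change of -0.21 (SE 0.83; edgeR, adjusted p = 0.896) became 0.058 with 6 separate libraries.

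Ighg1, the subclass typical of type 2 responses in mice, was the rarest of the tested genes, with 15, 59 and 98 counts in WT and 18, 93 and 104 counts in KO. The low libraries were again WT1 and KO1, at 0.206 and 0.286 CPM, and the others were between 0.836 and 1.78 CPM. Its log2 fold change was 0.14 with an SE of 1.03 (edgeR, adjusted p = 0.947), and 2 SE to either side span -1.92 to 2.20, so differences of this size were not detectable here.

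Ighg3, a subclass typical of responses to carbohydrate antigens, was at 1.47, 1.16 and 2.29 CPM in the WT libraries and at 0.906, 4.49 and 3.63 CPM in the KO libraries. KO1 was the lowest and KO2 the highest of all. The log2 fold change was 0.62 with an SE of 0.66 (edgeR, adjusted p = 0.6001), and it was -0.85 without KO2 and KO3. Ighe, the constant gene of the allergy-associated class, had 1, 1 and 0 counts in the WT and 3, 3 and 1 counts in the KO libraries. With 9 counts in all and none above the floor of 3 per library, no fold change is given.

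The make-up of the heavy-chain counts does not depend on the scaling of the libraries. Ighm took 88.8%, 94.99% and 89.4% of the heavy-chain constant counts in the WT and 92.1%, 88.9% and 88.5% in the KO libraries. The 4 IgG genes together took 1.22%, 2.01% and 2.08% in WT and 1.48%, 4.23% and 4.204% in KO. KO1 fell within the WT range of the IgG share and KO2 and KO3 lay above it, and the means of 1.77% ± 0.476 in WT (SD, n = 3) and 2.85% ± 1.94 in KO (SD, n = 2) gave an exact two-sided permutation p of 0.4.

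The IgG counts were then divided among the subclasses. Ighg2c took 29.8%, 28.8% and 11.2% of the IgG counts in WT1, WT2 and WT3. It took 58.3%, 54.6% and 54.4% in KO1, KO2 and KO3. All 3 KO libraries were close to each other and above every WT library. In KO1 the erythroid sum of 3971 CPM was within the WT range, and the squamous sum of 8694 CPM was the highest of all libraries. Their part in the share was not tested. The exact (Clopper-Pearson) 95% intervals, which cover counting error only, reached at most 34.9% in a WT library and started at 51.9% or higher in the KO libraries.

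The mean share of Ighg2c was 23.3% ± 10.5 in WT (SD, n = 3) and 56.4% ± 2.65 in KO (SD, n = 2), a difference of 33.1 percentage points. The exact two-sided permutation test gave p = 0.1, the smallest that 3 against 2 samples allow over their 10 splits, and 0.433 after Benjamini-Hochberg adjustment over the 13 shares compared. Leaving out each sample in turn gave differences of 27.1 to 36.4 points.

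The shares of the IgG genes sum to the whole, so they are not independent of that of Ighg2c, and the CPM of Ighg2b overlapped between the genotypes. Ighg2b took 35.5%, 52.7% and 55.6% of the IgG counts in the WT and 22.6%, 23.0% and 25.6% in the KO libraries. Every KO library was below every WT library, at means of 48.0% ± 10.9 in WT (SD, n = 3) and 23.5% ± 1.20 in KO (SD, n = 2) and an exact two-sided permutation p of 0.2 (0.65 after adjustment over the 13 shares). Ighg2c had 0.840, 0.546 and 0.201 counts per Ighg2b count in WT, and 2.57, 2.37 and 2.12 in KO. The ratio thus lay below 1 in each WT and above 2 in each KO library.

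The shares of Ighg1 and Ighg3 overlapped between the genotypes. Ighg1 took 4.26% to 13.8% of the IgG counts in WT and 4.58% to 6.57% in KO. Ighg3 took 10.8% to 30.4% in WT and 13.4% to 16.7% in KO.

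**Figure D3:**
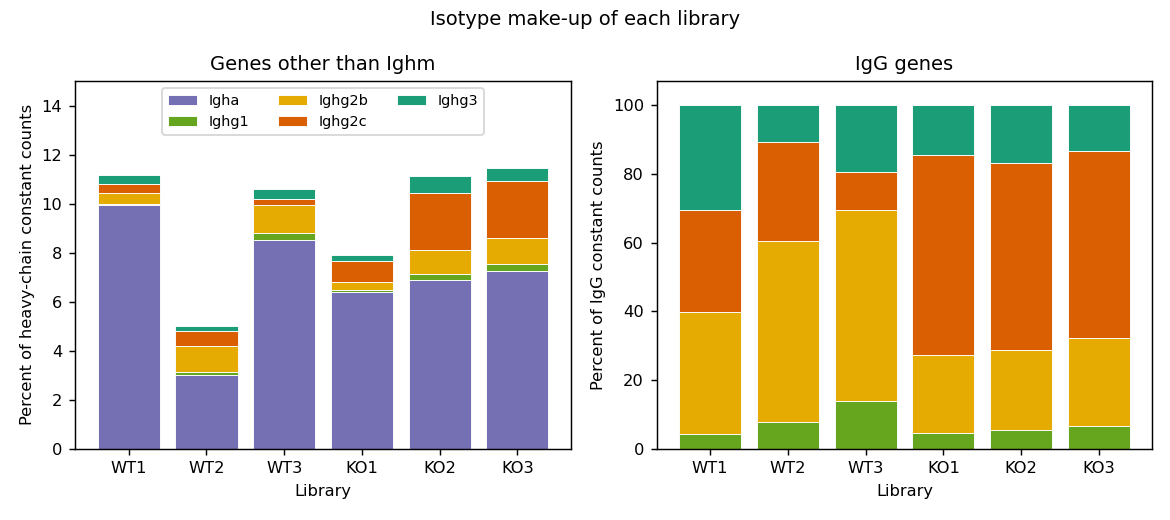
Left, percent of the heavy-chain constant counts of each library that fell on Igha and the 4 IgG genes, the remainder being Ighm and the few counts of Ighe. Right, percent of the IgG constant counts that fell on each subclass, with Ighg2c at 11.2% to 29.8% in the WT and 54.4% to 58.3% in the KO libraries.

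Libraries of the same genotype differed strongly in these genes. Among the 3 WT libraries the ratio of the highest to the lowest CPM was 7.94 for Ighg1, 3.83 for Ighg2b, 3.005 for Igha, 2.35 for Ighg2c, 1.97 for Ighg3, 1.75 for Jchain, 1.45 for Ighm and 1.27 for Igkc. The median was 2.16 over the 8 genes and 1.14 over the 18356 tested genes with more than 3 counts in each WT library. Of these 18356 genes, 99.1% had a smaller ratio than Ighg1 and 71.2% a smaller ratio than Igkc.

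**Figure D4:**
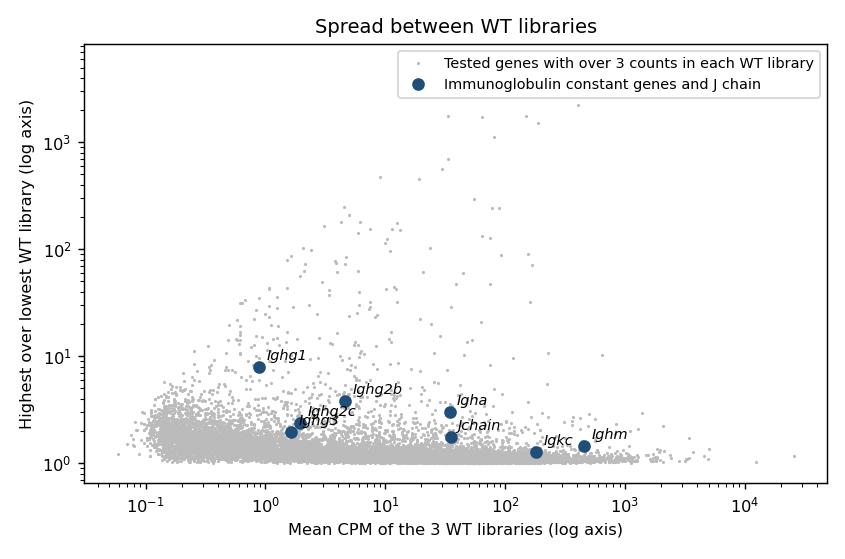
Ratio of the highest to the lowest WT library against the mean CPM of the 3 WT libraries, both on log axes, for the 18356 tested genes with more than 3 counts in each WT library (grey) and the immunoglobulin constant genes and Jchain (blue). The blue points run from 1.27 for Igkc to 7.94 for Ighg1, above the median of 1.14 over all genes plotted.

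KO2 and KO3 were the exception among the pairs of libraries. A chi-square of the heavy-chain constant counts of KO2 and KO3, divided by its degrees of freedom so that counting alone gives about 1, was 2.70, against 38.3 to 301 in the other 14 pairs. The same measure over the variable-region genes of the chains, which differ from one set of B cell clones to another, was 1.36, against 15.1 to 79.6 elsewhere. The variable-region genes of the heavy chain summed to 38.3, 58.4 and 61.6 CPM in the WT and 31.1, 73.4 and 68.3 CPM in the KO libraries, so KO2 and KO3 were again the highest. Those of the kappa chain summed to 83.4, 109.8 and 117 CPM in WT and 75.6, 115 and 112 CPM in KO, with overlap of the genotypes.

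The B cell list was read beside the immunoglobulin genes, of which 6 of 8 changed the sign of their log2 fold change without KO2 and KO3, and Ighg2c did not. Of 14 B cell genes tested, 12 had a negative and 2 a positive log2 fold change, with a median of -0.29. By edgeR 0 of 14 were called and 8 had an unadjusted p of at most 0.05, of which 7 were lower in KO, against 27.3% of all tested genes at that threshold. DESeq2 called 7, where it called 21.5% of all genes. With 6 separate libraries edgeR called 7, all lower in KO, where 9.07% of all genes were called lower. Ms4a1, which encodes the surface protein CD20, was at 32.0 to 36.6 CPM in WT and 18.2 to 25.5 CPM in KO (log2 fold change -0.64, SE 0.16; edgeR, adjusted p = 0.0892). Every KO library of Ms4a1 was below every WT library, as for 20.9% of all tested genes. The summed level of the list was 398 to 468 CPM in WT and 346 to 368 CPM in KO.

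Of 14 plasma cell genes, 8 had a positive and 6 a negative log2 fold change, with a median of 0.054. Their WT means ran from 0.352 CPM for Tnfrsf17 to 229 CPM for Txndc5. The part of plasma cells in these levels was not tested, so the median is not a measure of plasma cell content. By edgeR 1 was called and 4 had an unadjusted p of at most 0.05, 3 of them lower in KO. DESeq2 called 4, and edgeR with 6 separate libraries called 1 higher and 1 lower. Of all tested genes, edgeR called 2.28% and 27.3% passed that unadjusted p. DESeq2 called 21.5% of all genes, and edgeR with 6 separate libraries 18.9%. Sdc1, a surface proteoglycan of plasma cells that epithelial cells also make, was called higher in KO. It was at 192, 199.9 and 209 CPM in WT and 267, 257 and 256 CPM in KO (log2 fold change 0.39, SE 0.059; edgeR, adjusted p = 0.0487). This call was lost on leaving out any 1 sample, as was that of every other list gene called. Irf4, a transcription factor needed for plasma cells and named here after its values were seen, was at 14.8 to 16.5 CPM in WT and 9.95 to 10.7 CPM in KO (log2 fold change -0.58, SE 0.093; edgeR, adjusted p = 0.0506, and 0.00873 with 6 separate libraries). Tnfrsf17, the receptor BCMA that sustains plasma cells, stood at 0.274 to 0.400 CPM in WT and 0.270 to 0.667 CPM in KO (edgeR, adjusted p = 0.776).

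**Figure D5:**
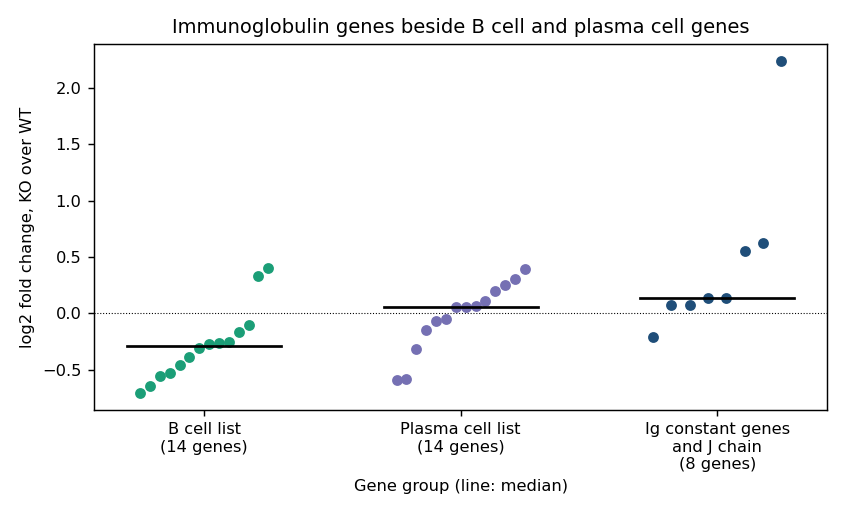
Log2 fold change, KO over WT, of each tested gene of the B cell list, the plasma cell list and the immunoglobulin group (edgeR, KO2 and KO3 summed), with a line at the median. The medians are -0.29, 0.054 and 0.14, and Ighg2c is the highest point at 2.24.

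The machinery of class switching had 0 of 16 genes called by edgeR and 3 at an unadjusted p of at most 0.05, with 4 log2 fold changes positive, 12 negative and a median of -0.080. DESeq2 called 3 of these genes, and edgeR with 6 separate libraries called 2, both lower in KO. The shares of all tested genes were 2.28% by edgeR, 27.3% at that unadjusted p, 21.5% by DESeq2 and 18.9% with 6 separate libraries. Ung, which removes uracil from DNA, was at 2.04 to 2.44 CPM in WT and 2.04 to 2.72 CPM in KO. Of 7 germinal centre genes and 8 genes of signals for switching, 0 were called by edgeR, by DESeq2 or with 6 separate libraries, and 0 had an unadjusted p of at most 0.05. In the first of these lists Bcl6, the master factor of germinal centre B cells, was at 47.5 to 80.8 CPM in WT and 58.1 to 70.4 CPM in KO. In the second Tgfb1, a cytokine that directs switching to IgA, was at 66.4 to 82.2 CPM in WT and 78.9 to 95.6 CPM in KO.

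Of 11 genes for receptors that bind or carry immunoglobulin, 1 had a positive and 10 a negative log2 fold change, with a median of -0.23. By edgeR 0 were called and 3 had an unadjusted p of at most 0.05. DESeq2 called 1, and edgeR with 6 separate libraries called 2, both lower in KO. Over all tested genes these shares were 2.28%, 27.3%, 21.5% and 18.9%, in the same order. Pigr, the receptor that carries polymeric IgA and IgM across epithelium, was at 109, 106 and 97.7 CPM in WT and at 70.0, 126 and 124 CPM in KO. KO1 was the lowest KO library in Pigr, as it was in all 8 tested immunoglobulin genes. Fcgrt, which protects IgG from breakdown, was at 97.4 to 105 CPM in WT and 96.1 to 114 CPM in KO.

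Of 14 genes for homing of antibody-secreting cells, 4 had a positive and 10 a negative log2 fold change, with a median of -0.074. By edgeR 1 was called and 2 had an unadjusted p of at most 0.05, DESeq2 called 1, and edgeR with 6 separate libraries called 1. The shares over all tested genes were 2.28%, 27.3%, 21.5% and 18.9%, in the same order. Itga4, an integrin chain of many leukocytes, was called lower in KO, and the call was lost on leaving out any 1 sample. It was at 68.8, 65.3 and 62.6 CPM in WT and at 38.3, 43.5 and 46.1 CPM in KO (log2 fold change -0.65, SE 0.091; edgeR, adjusted p = 0.0472). Ccl28, the chemokine of mucosal plasma cells, stood at 0.354 to 0.878 CPM in WT and 0.445 to 0.763 CPM in KO, and its receptor gene Ccr10 had 3 to 10 counts in WT and 5 to 14 in KO.

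Markers of other tissues were read beside these values. The 4 genes listed for lymph node vessels summed to 11.9 to 12.6 CPM in WT, 10.5 CPM in KO1, and 20.2 and 20.4 CPM in KO2 and KO3. Most of this sum was Chst4, a sulphotransferase gene, so the sum is not a measure of such vessels. Of the 2 genes tested, 1 had a positive and 1 a negative log2 fold change, with a median of 0.052. Neither was called by edgeR or DESeq2. Chst4 had a log2 fold change of 0.37 (edgeR, adjusted p = 0.456). Fut7 was at 1.25 to 1.47 CPM in WT and 0.890 to 1.35 CPM in KO (log2 fold change -0.27; edgeR, adjusted p = 0.525). Glycam1 reached 33 and 20 counts in KO2 and KO3 against 2, 9 and 6 in the WT libraries and none in KO1, and Madcam1 stood at 0 counts in 5 libraries and 2 counts in WT3. Glands of the airway summed to 619.9 to 680.5 CPM in WT and 533 to 675 CPM in KO, but their members differed in sign, with 4 of 5 log2 fold changes negative and a median of -0.59. None was called by edgeR, 2 had an unadjusted p of at most 0.05, and DESeq2 called 2. With 6 separate libraries edgeR called 1 higher and 1 lower. Of all tested genes 27.3% passed that unadjusted p, DESeq2 called 21.5%, and edgeR with 6 separate libraries called 18.9%. Ltf, which encodes lactoferrin, was at 77.1 to 128 CPM in WT and 30.7 to 57.8 CPM in KO (log2 fold change -1.24; edgeR, adjusted p = 0.104), and Lyz1, a lysozyme gene, at 164 to 246 CPM in WT and 294 to 353 CPM in KO (log2 fold change 0.65; edgeR, adjusted p = 0.105). Of 9 T cell genes 8 had a positive log2 fold change, with a median of 0.32. Of these genes 0 were called by edgeR or DESeq2 and 1 had an unadjusted p of at most 0.05, and Cd3e was at 4.80 to 6.08 CPM in WT and 5.77 to 7.56 CPM in KO. Rag1, a recombinase gene of immature lymphocytes, had 111 counts in WT1 and 2 to 36 counts in the other libraries. Of 7 macrophage genes 6 had a negative and 1 a positive log2 fold change, with a median of -0.25. Mrc1 was called lower in KO (log2 fold change -0.56, SE 0.080; edgeR, adjusted p = 0.0474), as were 0.906% of all tested genes. The call was lost on leaving out any 1 WT sample. Marco, which opens the list, was at 6.09 to 13.2 CPM in WT and 12.2 to 13.5 CPM in KO (log2 fold change 0.54; edgeR, adjusted p = 0.374). The part of these cell types, of the squamous transcripts in WT3 and KO1 and of the erythroid transcripts in KO2 and KO3 in the immunoglobulin levels was not tested.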

How the data were processed

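Lung RNA was sequenced in 6 libraries. The authors deposited raw counts per gene. Per their methods and processing notes, reads were trimmed (Trimmomatic 0.36), aligned to mm10 (GRCm38) with STAR 2.5.3a and counted with HTSeq 0.6.0. Picard 2.9.0 is also named. Annotation release, strand setting and read length were not given in the sources used here, so reads of overlapping genes could not be told apart, and duplicate reads are not independent molecules. All library columns were used. A ZT10 experiment was not analysed here.

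KO was compared with WT by the quasi-likelihood test of edgeR 4.0.16 (R 4.3.3; two-sided), after filterByExpr and TMM, with KO2 and KO3 summed. Benjamini-Hochberg adjustment ran over every tested gene, and adjusted p up to 0.05 counted as called. Their median squared deviation between libraries was 1.82 times that of counting alone, against 4.72 to 23.3 in other pairs. In each mean ± SD their mean CPM is 1 replicate. The SE is the absolute log2 fold change over the root of F. DESeq2 1.42.0, other scalings and filters, separate libraries, a replicate block and left-out samples were alternatives. Shares of counts were compared with exact permutation tests. Exon lengths, positions and sequences come from GENCODE M21 on GRCm38. The scripts were tested on simulated data.

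The genes named are all members, and from each gene list the called genes (up to 4) and the 2 that open the list, printed where they bear on the immunoglobulin genes. Irf4, Chst4, Fut7 and Txndc5 were named in addition, after their values were seen. A few list genes are not reported here. Members, lists and the summing of KO2 and KO3 were chosen with earlier results of these data known.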

Additional observations from a re-analysis of the deposited data

How the results depend on the processing

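The 426 genes called became 909 with at least 10 counts in every sample, 3875 with DESeq2, 3402 with 6 separate libraries, 1157 with 6 separate libraries and a replicate block together, and 2256 without WT3 and KO1, an alternative chosen after seeing the data that leaves 1 KO sample, assumed to vary like WT. Leaving out 1 sample gave 0 to 17, whichever it was. With library size alone as scaling, 306 genes were called, 38.2% of them higher in KO, against 60.3% in the main analysis. The 0 immunoglobulin genes called became 1 with DESeq2 (Ighg2c), 1 with 6 separate libraries (Ighg2c), 1 with 6 separate libraries and the replicate block (Jchain, log2 fold change 0.67, adjusted p = 0.0428, edgeR) and 3 without WT3 and KO1 (Ighg2c, Ighg3 and Jchain), and stayed 0 on leaving out 1 sample. The 7 list genes called became 2 with no filter, 26 with DESeq2, 24 with 6 separate libraries, 13 with 6 separate libraries and the replicate block and 29 without WT3 and KO1, and 0 on leaving out any sample. The cause was not tested.

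Of 120 log2 fold changes of the 8 genes over 15 alternatives, 107 kept their direction and 13 did not, none of these past the threshold. Ighg2b became 0.058 with 6 separate libraries and 0.82 without WT3 and KO1. On leaving out 1 sample the values ran from -0.23 to 0.31 for Ighm, -0.35 to 0.39 for Igha, -1.63 to 0.92 for Ighg1, -1.72 to 0.49 for Ighg2b, -0.85 to 1.31 for Ighg3, -0.29 to 0.45 for Igkc and -0.18 to 1.03 for Jchain, each lowest without KO2 and KO3. Leaving out either KO sample leaves 1, assumed to vary like WT. With KO2 and KO3 kept, the lowest values were -0.083 for Ighm (without WT1), -0.27 for Igha (without WT2), -0.33 for Ighg1 and -0.61 for Ighg2b (both without WT1). Ighg2c stayed positive in all 15, from 0.89 to 2.91, with adjusted p of 0.00337 to 0.353 (edgeR and DESeq2), in 3 past the threshold.

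Deviations of same-numbered libraries from the mean of their genotype correlated at -0.52, 0.76 and -0.78. With 3 libraries per genotype, and KO2 and KO3 nearly alike, these values cannot show whether replicate numbers paired the samples. Depth limits Ighe (9 counts) and Ighg1, and 2 KO samples limit every test.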
